A study of Homo sapiens with 12 samples.

Results

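The S100 genes encode small calcium-binding proteins, and 10 of them (S100A2, S100A3, S100A4, S100A6, S100A8, S100A10, S100A11, S100A13, S100A14 and S100A16) are described here for the stability of their mRNAs in a breast cancer cell line that over-expresses a transfer RNA. They were found by symbol, all 10 of 10, among the 34602 genes of the authors' deposited table. They were chosen with the scores known, S100A16 and S100A4 lying at opposite ends for tRNA-Glu, so the scores below are a description and were not tested. The line is MDA-MB-231, a human triple-negative breast cancer line of mesenchymal type. It carried a stably over-expressed tRNA-Glu (Glu-TTC, locus chr1.trna5), a stably over-expressed tRNA-Arg (Arg-CCG, locus chr16.trna1) or a mock construct. Cells of all 3 lines were exposed for 0 or 9 h to 10 µg/mL of α-amanitin, which inhibits RNA polymerase II, giving 6 groups of 2 arrays. Total RNA was hybridised to Illumina expression BeadChips. The labels do not say whether a line was a clone or a pool, nor whether replicates were separate cultures. Each score refers to RNA of a whole culture, in which fewer cells of a kind and less RNA per cell cannot be told apart.

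S100 proteins are EF-hand proteins that mostly form dimers. On binding calcium many of them expose a surface that docks onto a partner protein, such as an annexin or a myosin. Several are also released from cells and act on receptors such as AGER and TLR4. Most of the genes lie side by side in a cluster on the long arm of chromosome 1, interleaved with genes of the skin's cornified layer. In cancer cells S100A4 is known for its link to invasion and metastasis. After α-amanitin little new mRNA is made, so the fall of an mRNA from 0 to 9 h follows its decay.

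The arrays held 47231 probes each, with a mean raw intensity per array between 533 and 606 at 0 h and between 497 and 525 at 9 h. Probes were not paired with genes here, so intensities of the S100 genes in single arrays are not given, and the line's identity was not checked against its marker genes. The authors' deposited table gives instead, for every gene, 1 stability score in tRNA-Glu cells and 1 in tRNA-Arg cells, both relative to control. How a score was calculated and whether it is a logarithm is not said. No gene's pair of scores equalled, within 1e-07, the difference between 9 h minus 0 h changes of log2, natural log or log10 processed intensities of any probe, 0 of 34602 genes in each case. Neither replicates nor p-values accompany the scores. A positive score is read, from the column header, as more stable in the tRNA line. The authors' processed intensities had a median of 56.2 to 56.3 in every array. Scores made from them would be relative to the other RNAs, so a positive score need not mean slower decay. Both columns use the same control, so agreement between them is no independent support. The tRNA-Glu scores in the authors' deposited table spread 1.59 times as widely (SD 0.135) as the tRNA-Arg scores (SD 0.0846). Scores of the 2 columns are therefore compared below by percentile, counted from the lowest of all genes, or in SDs of their own column.

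All 10 genes lie on chromosome 1 (GRCh38.p14) and are read from the minus strand. The start regions of the genes with the lowest and the highest tRNA-Glu score among them are shown because RNA polymerase II, the target of α-amanitin, begins there. The scores themselves do not read these sequences. Each is the 250 bases before the annotated start, 5′ to 3′ on the minus strand, from RefSeq, with TATAA in capitals where it occurs. S100A4 covers chr1:153543621-153545806 and the stretch is chr1:153545807-153546056. S100A16 covers chr1:153606883-153613137 and the stretch, before the first of its 2 listed starts, is chr1:153613138-153613387.
S100A4: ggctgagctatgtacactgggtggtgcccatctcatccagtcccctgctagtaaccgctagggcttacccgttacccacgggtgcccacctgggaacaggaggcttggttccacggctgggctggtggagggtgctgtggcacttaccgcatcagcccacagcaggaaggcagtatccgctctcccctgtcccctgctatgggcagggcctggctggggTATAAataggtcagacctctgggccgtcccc
S100A16: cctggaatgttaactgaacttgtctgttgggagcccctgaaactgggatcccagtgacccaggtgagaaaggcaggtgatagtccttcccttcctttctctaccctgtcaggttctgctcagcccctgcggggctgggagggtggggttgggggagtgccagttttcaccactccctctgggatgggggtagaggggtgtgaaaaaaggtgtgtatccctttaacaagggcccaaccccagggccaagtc
The letters TATAA begin 31 bases before the start of S100A4 and do not occur, on either strand, in either window of S100A16. Among the 10 genes 5 have TATAA in at least 1 window, on the strand of the gene (S100A4, S100A6, S100A8, S100A13 and S100A14), and 5 do not. Of the 16 windows of the 10 genes 6 hold TATAA. Of all 35116 RefSeq windows of this length 18.9% hold it on either strand and 13.6% on the strand of the gene. S100A8 and S100A13 have 3 windows each, and the share of all genes with a match was not counted. These matches are a description of letters only.

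The 10 genes did not share a direction. For tRNA-Glu, 7 scores were above 0 and 3 below, with a median of 0.0601 and a range from -0.924 to 0.544, in the authors' deposited table. The authors' deposited table as a whole had a tRNA-Glu median of 0.00489, with 52.8% of genes above 0. For tRNA-Arg, 4 were above 0 and 6 below, with a median of -0.0170 and a range from -0.656 to 0.279, in the authors' deposited table. Its tRNA-Arg median over all genes was 0.00166, with 51.0% above 0, also from the authors' deposited table. The central 95% of all genes ran from -0.294 to 0.283 for tRNA-Glu and from -0.171 to 0.172 in the tRNA-Arg column of the authors' deposited table. For tRNA-Glu, S100A16 lay below that range and S100A4 and S100A11 above it, 3 of 10, where 2.50% of all genes are on each side and 5.01% outside by construction. For tRNA-Arg, S100A16 lay below and S100A4 above, 2 of 10, against 2.50% of all genes on each side and 5.01% outside. The genes were chosen on these scores, so nothing is read from the counts.

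**Figure D1:**
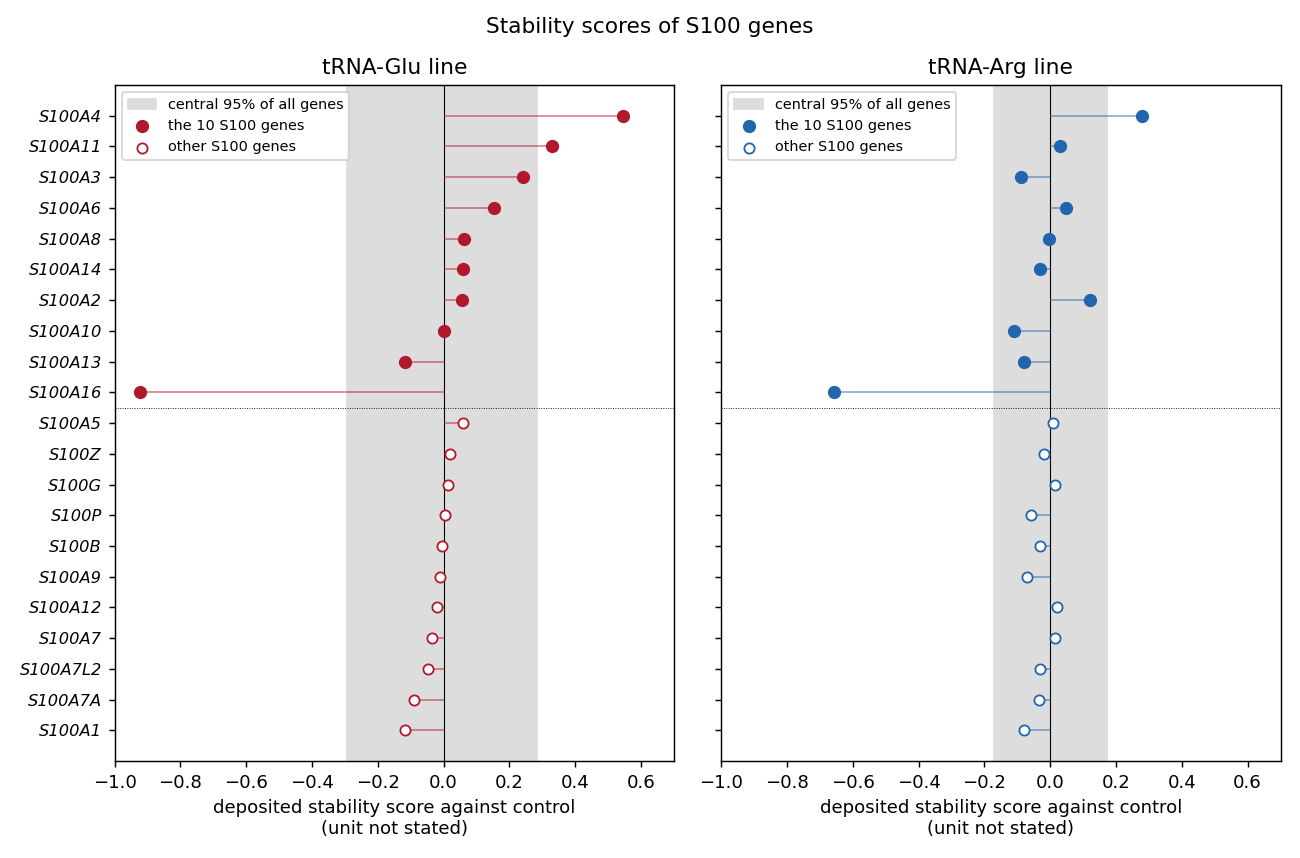
Stability score in the authors' deposited table (horizontal axis, unit not stated) for each S100 gene in the tRNA-Glu line (left) and the tRNA-Arg line (right), with no replicates. Filled points are the 10 genes, open points the 11 other S100 genes, and the grey band is the central 95% of all genes. S100A16, at -0.924 and -0.656, stands far below the band in both panels, and S100A4, at 0.544 and 0.279, above it.

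S100A16, a widely expressed member of the family with an atypical first EF-hand, had the lowest scores of the 10. In the authors' deposited table it had -0.924 for tRNA-Glu, the 17th lowest of 34602 genes. It had -0.656 for tRNA-Arg, the 4th lowest, in the authors' deposited table. In SDs of its column this was -6.86 for tRNA-Glu and -7.76 in the tRNA-Arg column of the authors' deposited table. It was thus among the outermost genes in both lines. The genes without placeholder names that lay closest to it in both scores were GNG12, a G-protein gamma subunit, the membrane protease ADAM9 and VOPP1. GNG12 had -0.835 for tRNA-Glu and -0.576 in the tRNA-Arg column of the authors' deposited table. ADAM9 had -0.896 and -0.556, and VOPP1 -1.10 and -0.621, in the authors' deposited table. Likeness here is the distance between the 2 scores in column SDs, 1.16 for GNG12, 1.20 for ADAM9 and 1.39 for VOPP1, and rests on those 2 values only.

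S100A4, which binds non-muscle myosin IIA and is linked to metastasis, was at the opposite end. In the authors' deposited table it had 0.544 for tRNA-Glu, the 130th highest gene, and 0.279 for tRNA-Arg, the 178th highest. These are percentiles 99.6 and 99.5 in the authors' deposited table. In column SDs its scores were 4.04 and 3.30 in the authors' deposited table, smaller in size than those of S100A16. The closest genes without placeholder names were SNHG5, a host gene of small nucleolar RNAs, the chemokine gene IL8, and SNAPIN, a SNARE-binding protein. SNHG5 had 0.548 and 0.271, IL8 0.506 and 0.270, and SNAPIN 0.578 and 0.256, for tRNA-Glu and tRNA-Arg in turn, in the authors' deposited table. Their distances from S100A4 were 0.100, 0.304 and 0.369 column SDs. S100A6, or calcyclin, a neighbour of S100A4 that is also studied in tumour growth, had 0.152 for tRNA-Glu and 0.0491 in the tRNA-Arg column of the authors' deposited table. Both its scores were above 0 and inside the central 95%, at percentiles 92.2 and 76.8 of the authors' deposited table.

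Of S100A10 and S100A11, which are among the members that bind annexins, S100A11 had a high score for tRNA-Glu but not for tRNA-Arg. S100A11, which binds annexin A1 and takes part in membrane repair, had 0.330 for tRNA-Glu, percentile 98.3, in the authors' deposited table. For tRNA-Arg it had 0.0313, percentile 68.1, in the authors' deposited table. S100A10, the partner of annexin A2 at the plasma membrane and a family member that does not respond to calcium, had -0.000204 in the tRNA-Glu column of the authors' deposited table. That is percentile 47.1, close to the middle, while its tRNA-Arg score of -0.109 was at percentile 6.78 in the authors' deposited table. For both genes the tRNA-Glu score lay higher in column SDs, by 2.08 for S100A11 and by 1.29 for S100A10, in the authors' deposited table. Whether either gene differs between the lines was not tested, since the authors' deposited table holds 1 value per line.

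The remaining 5 members, S100A2, S100A3, S100A8, S100A13 and S100A14, were inside the central 95% in both lines. S100A3, a cysteine-rich protein of the hair cuticle, had the widest gap between the lines among the 10, 2.84 column SDs, in the authors' deposited table. It had 0.241 for tRNA-Glu, percentile 96.5, and -0.0892 for tRNA-Arg, percentile 9.86, in the authors' deposited table. S100A2, an epithelial member with a nuclear form, went the other way, with 0.0549 for tRNA-Glu and 0.122 in the tRNA-Arg column of the authors' deposited table. S100A14, also epithelial, had 0.0584 and -0.0297, at percentiles 76.1 and 30.8, in the authors' deposited table. S100A8, which pairs with S100A9 to form calprotectin in myeloid cells, had 0.0618 and -0.00443 in the authors' deposited table. S100A13, which helps to export FGF1 and IL1A without a signal peptide, had -0.119 and -0.0804, percentiles 9.30 and 11.8, in the authors' deposited table. Of the 10 genes 7 had the same sign in both lines, and S100A3, S100A8 and S100A14 had opposite signs, in the authors' deposited table. In the lists described below, signs were the same for 7 of 11 other S100 genes, 22 of 31 genes of the partner list and 19 of 26 of the EF-hand list. The share over all genes was not counted and both columns use the same control, so nothing is read from the 7.

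**Figure D2:**
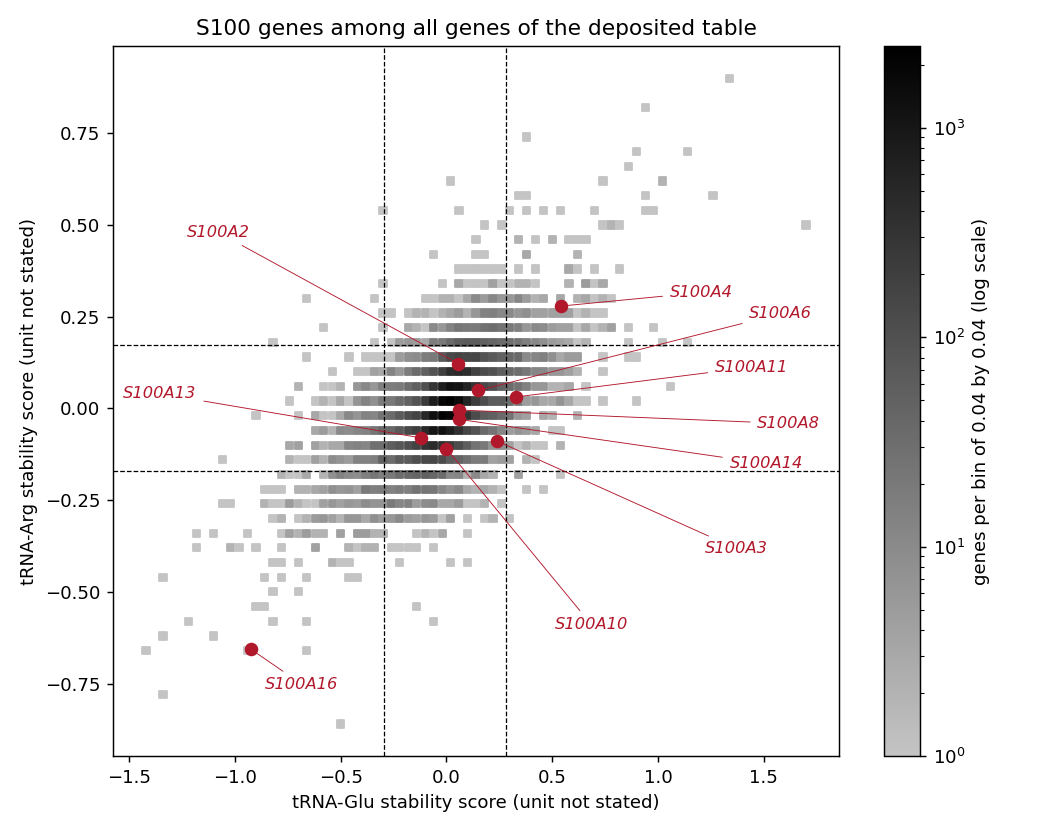
Stability scores of all 34602 genes of the authors' deposited table, tRNA-Glu on the horizontal and tRNA-Arg on the vertical axis (units not stated), as grey squares darkened by gene number on a log scale. Red points are the 10 S100 genes and dashed lines bound the central 95% of each column. S100A16 and S100A4 lie in opposite corners, S100A11 (0.330 and 0.0313) is outside for tRNA-Glu alone, and S100A3 (0.241 and -0.0892) lies between the lines near the right border.

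The scores give no error of their own, and no probe of an S100 gene was identified, so the precision of these 10 scores is unknown. The arrays as a whole show how precise a stability difference of 1 probe was. For each probe the change from 0 to 9 h in a tRNA line minus that in mock was fitted with limma over all 12 arrays. The median half-width of its 95% confidence interval was 0.49 on the log2 scale in both lines. It cannot be set against the scores, whose scale is not known. With limma 1 of 47231 probes (0.00212%) passed a Benjamini-Hochberg adjusted p of 0.05 for tRNA-Glu, and 5067 were under 0.05 unadjusted. For tRNA-Arg limma called 0 probes (0%), with 2580 under 0.05 unadjusted. The tRNA-Glu count was 496 without tRNA-Glu 0 h replicate 2, 15 without mock 0 h replicate 2 and 3 without tRNA-Glu 9 h replicate 1. It was 0 without mock 0 h replicate 1, tRNA-Glu 0 h replicate 1, mock 9 h replicate 2 or tRNA-Glu 9 h replicate 2, and the tRNA-Arg count was 10 without mock 0 h replicate 2.

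All 11 other S100 genes in the authors' deposited table, among them S100A1, S100A9, S100B and S100P, were inside the central 95% in both lines. By construction only 5.01% of all genes are outside in each column, so nothing is read from this count. The 11 genes were not all in the middle: S100A1 was at percentiles 9.35 and 11.9, and S100A9 at 14.3 in the tRNA-Arg column of the authors' deposited table. Their tRNA-Glu scores ran from -0.118 to 0.0601 around a median of -0.0102, and their tRNA-Arg scores from -0.0797 to 0.0210 around -0.0299, in the authors' deposited table. S100A9, the calprotectin partner of S100A8, had -0.0102 for tRNA-Glu and -0.0705 in the tRNA-Arg column of the authors' deposited table. S100P, known from placenta and carcinomas, had 0.00560 and -0.0596, and the glial marker S100B -0.00474 and -0.0299, in the authors' deposited table. The 10 described genes were picked with these scores known, so their wider spread is no comparison with the rest of the family. S100A1, a muscle member of the family, had -0.118 and -0.0797 in the authors' deposited table, within 0.000629 of S100A13 in both columns. Only 1 other gene of the authors' deposited table lay as close to S100A13. In RefSeq the span of S100A1 lies within that of S100A13 on the opposite strand. Whether the 2 scores share a probe was not tested.

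Along the S100 region of chromosome 1, cut at the outermost of the 10 genes, the genes outside the central 95% were S100A4, S100A11 and S100A16. The region from S100A10 to S100A13 holds 94 RefSeq genes, 61 of them in the authors' deposited table by their current symbol, 17 S100 genes and 44 others. Most of the others encode proteins of the cornified layer of the skin, such as filaggrin (FLG), involucrin (IVL) and cornulin (CRNN), or their relatives. All 44 were inside the central 95% in both lines, where 5.01% of all genes are outside in each. Their scores ran from -0.103 to 0.216 for tRNA-Glu and from -0.0858 to 0.158 in the tRNA-Arg column of the authors' deposited table. FLG had 0.216 for tRNA-Glu, IVL 0.0778 and CRNN -0.103 in the authors' deposited table. For tRNA-Glu, 5 of the 10 S100 genes (S100A2, S100A6, S100A8, S100A10 and S100A14) fell within the span of these 44 genes in the authors' deposited table. S100A16 sits between S100A2 (0.0549) and S100A14 (0.0584), which lay at percentiles 74.8 and 76.1 in the tRNA-Glu column of the authors' deposited table. S100A4 has S100A5 (0.0601) on one side and S100A3 (0.241) on the other in the tRNA-Glu column of the authors' deposited table. SNAPIN (chr1:153658654-153661852), one of the genes closest to S100A4 in both scores, is the first gene found by current symbol that starts beyond S100A13. It lay above the central 95% in both lines, at percentiles 99.7 and 99.3 of the authors' deposited table, so a wider cut would add a gene outside the range that is not an S100 gene. The region was picked after the scores had been seen, and no level of these genes is known here.

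**Figure D3:**
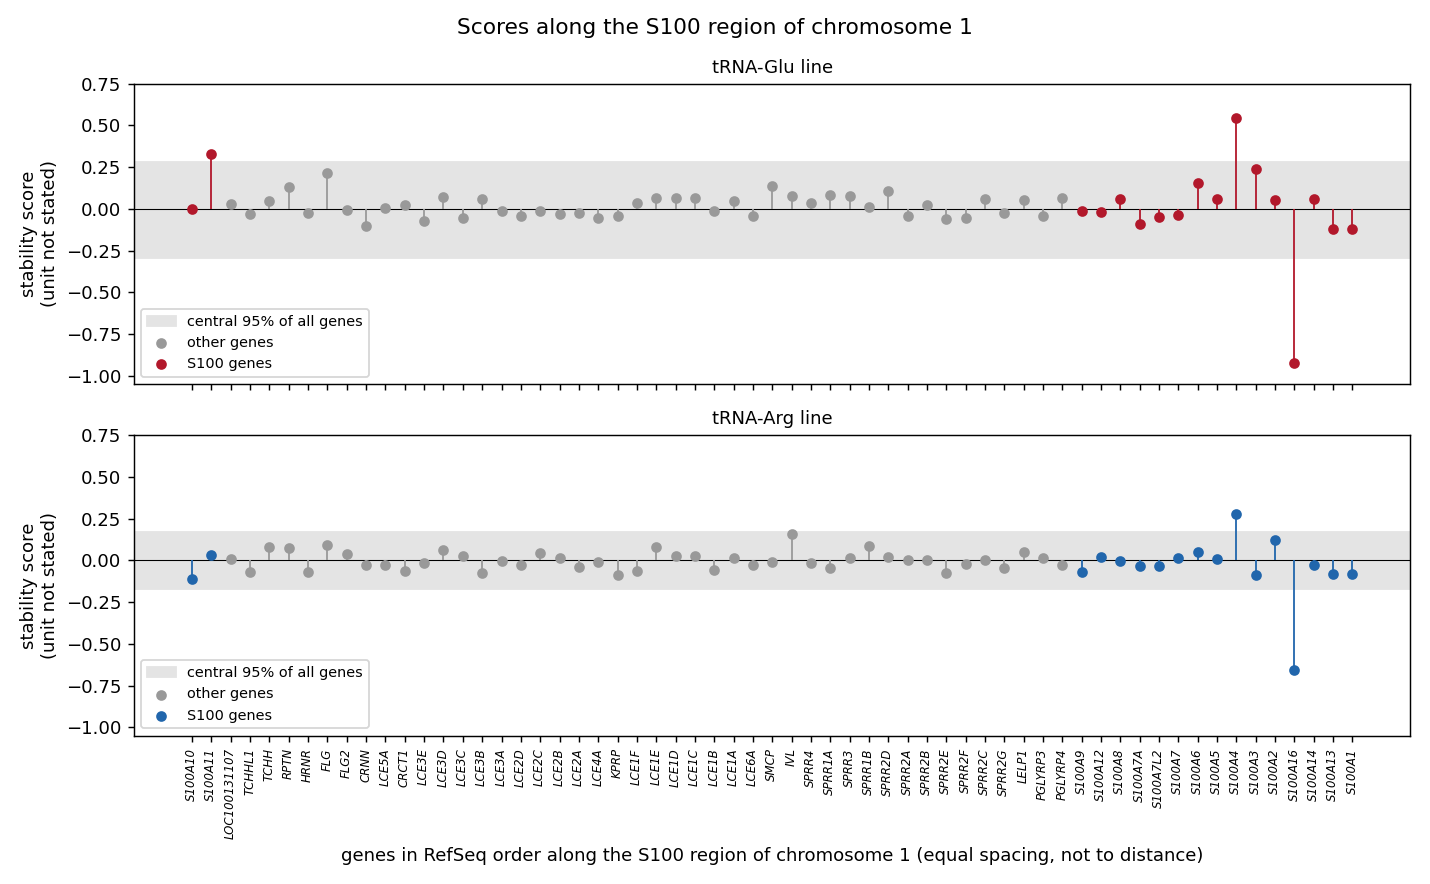
Stability scores in the authors' deposited table (vertical axes, unit not stated) for the 61 genes of the S100 region in their order on chromosome 1, for tRNA-Glu (top) and tRNA-Arg (bottom). Coloured points are S100 genes, grey points other genes, and the grey band is the central 95% of all genes. The 44 other genes stay inside the band in both panels, where 5.01% of all genes are outside in each. S100A16 (-0.924 and -0.656) stands below both its neighbours, S100A2 (0.0549 and 0.122) and S100A14 (0.0584 and -0.0297).

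A list of 31 held genes whose products bind S100 proteins, act in their pathways or receive them as ligands. It also held the annexin A2 pseudogenes ANXA2P1, ANXA2P2 and ANXA2P3, and ANXA2P1 is among the genes above the central 95% in both columns. In the tRNA-Glu column of the authors' deposited table, members below the central 95% numbered 3 of 31 and those above 2, against 2.50% of all genes on each side, and the list's median was -0.00646 (0.00489 over all genes). In the tRNA-Arg column of the authors' deposited table, only PLAU was below and 2 were above, against 2.50% of all genes on each side, and the median was 0.0199 (0.00166 over all genes). The low ones for tRNA-Glu included PLAU, the plasminogen activator urokinase, at -0.399, and its receptor PLAUR at -0.415 in the authors' deposited table. The membrane glycoprotein BSG, a receptor of S100A9, had -0.405 there, and the tissue plasminogen activator PLAT, inside the range, had -0.260, in the authors' deposited table. For tRNA-Arg PLAU had -0.336, PLAUR -0.136, BSG -0.0875 and PLAT -0.0176 in the authors' deposited table.

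Of the partners named by rule, ANXA2, AHNAK, CACYBP and AGER were inside the central 95% in both lines. ANXA2, which joins S100A10 in a tetramer, had 0.0480 for tRNA-Glu and 0.0658 in the tRNA-Arg column of the authors' deposited table. AHNAK, a giant scaffold bound by that complex, had 0.113 and -0.0675, and CACYBP, the calcyclin-binding protein, 0.0784 and 0.0594, in the authors' deposited table. The receptor AGER had -0.0125 and 0.0254 in the authors' deposited table. CAPZA1, a subunit of the actin-capping protein that S100B binds, had 0.349 for tRNA-Glu and 0.0535 in the tRNA-Arg column of the authors' deposited table. The annexin A2 pseudogene ANXA2P1 had 0.353 and 0.185 in the authors' deposited table, above the central 95% in both lines. It is a near copy of ANXA2, and whether its probe separates the 2 transcripts was not tested. The pseudogenes ANXA2P2 (0.227 and 0.154) and ANXA2P3 (0.179 and 0.132), named after their values were seen, were inside the central 95% in both lines. MYH9, the myosin heavy chain bound by S100A4 and named after its value was seen, had 0.163 for tRNA-Glu, and 0.215 for tRNA-Arg, above the central 95%, in the authors' deposited table.

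Other EF-hand proteins were set beside the S100 genes in a list of 26. This list also holds S100PBP, which is there as a binding partner of S100P and not as an EF-hand protein, and the counts below include it. The authors' deposited table put 1 of them below the central 95% and 3 above for tRNA-Glu, where 2.50% of all genes are on each side. Of the 26 scores, whose median was 0.0754, 20 were above 0 in the authors' deposited table, against 52.8% of all genes. For tRNA-Arg the authors' deposited table put 0 below and 5 above, where 2.50% of all genes are on each side, and 17 scores were above 0 (median 0.0482), against 51.0% of all genes. The calcium-activated protease calpain is a dimer of a catalytic subunit (CAPN1 or CAPN2) and the shared small subunit CAPNS1. CAPN1 had 0.651 and CAPN2 0.353, but CAPNS1 -0.579, in the tRNA-Glu column of the authors' deposited table. For tRNA-Arg CAPN1 had 0.307, CAPN2 0.196 and CAPNS1 -0.127 in the authors' deposited table. PPP3R1, the regulatory subunit of calcineurin, had 0.370 for tRNA-Glu and 0.572 in the tRNA-Arg column of the authors' deposited table. S100PBP, which binds S100P, had 0.00605 and 0.0277 in the authors' deposited table. The 1 gene below the central 95% for tRNA-Glu was CAPNS1, and the S100 genes were picked for lying at opposite ends, so no likeness is read from these positions.

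**Figure D4:**
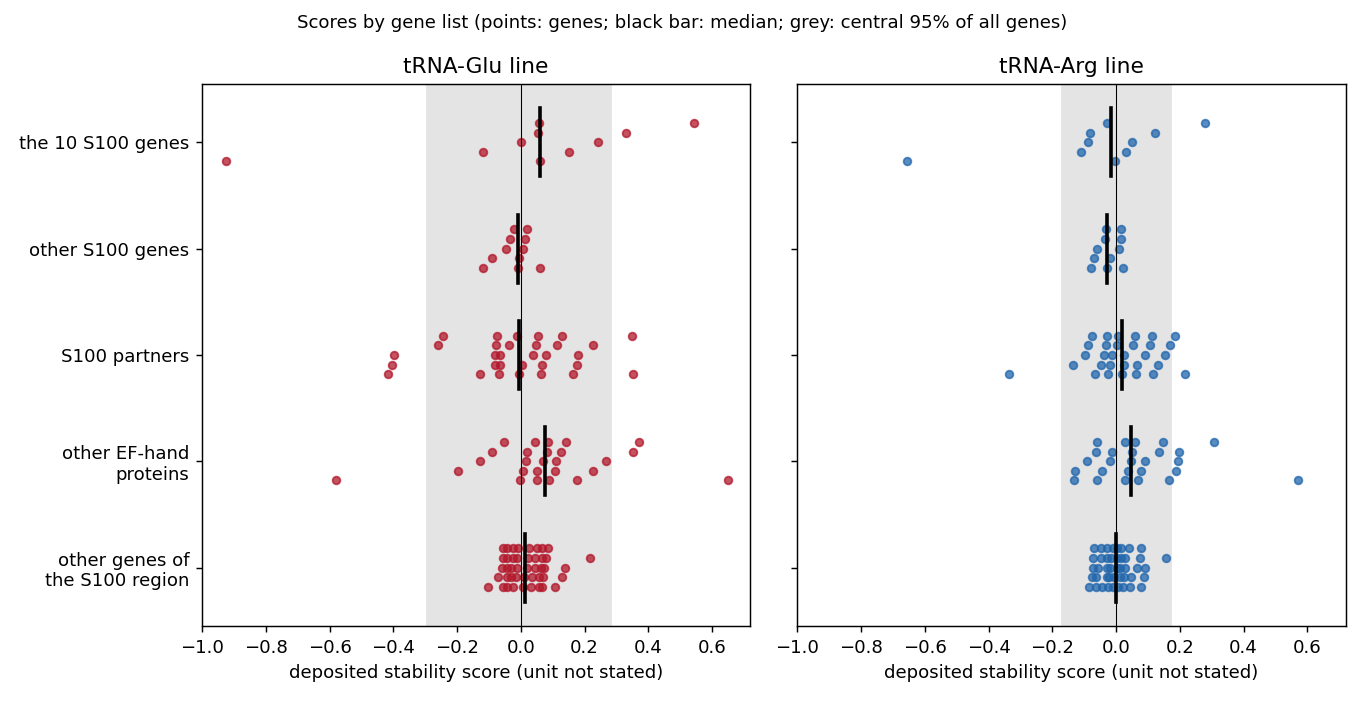
Stability scores in the authors' deposited table (horizontal axes, unit not stated) by gene list, for tRNA-Glu (left) and tRNA-Arg (right). Points are genes, black bars medians and the grey band the central 95% of all genes. The medians of the 10 S100 genes (0.0601 and -0.0170) lie inside the band while S100A16 and S100A4 stand apart, and the 44 other genes of the region form the narrow group at the bottom.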

How the data were processed

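RNA of 12 samples was measured on Illumina expression BeadChips, and the sample labels gave the groups. The authors' deposited table holds a score per gene and tRNA line, of unstated formula. A non-normalized table, deposited beside it, has an intensity per probe, and the deposited series matrix holds the authors' processed intensity on a linear scale. The labels name lumi without a version or step, and the authors' further steps were not stated in the labels or headers. The non-normalized table also has 12 columns of detection p-values whose names match no sample, and they were not used.

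Ranks, percentiles ((rank - 0.5) / number of genes), medians and central ranges were computed from the scores. Placeholder names are LOC, open reading frame, KIAA, FLJ, MGC, DKFZ and HS symbols. Raw intensities were corrected by limma's normexp (saddle, offset 16), quantile normalized and put on the log2 scale. One fit of 6 group means with empirical Bayes moderation (6 residual degrees of freedom) gave the stability differences of all probes. The code of this fit was first tested on simulated data with known differences. The planned tests of S100 probes over the 3 lines and both times were not run because no table used here pairs probes with genes, and the planned rule of likeness over arrays was replaced by the distance between scores. The text names all 10 genes, S100 relatives, and per list ANXA2, AHNAK, CACYBP and AGER or the genes with the largest scores in size (6 partners, 4 EF-hand genes), plus genes stated as named later. Members and lists were chosen with earlier results of these data known. Sequences and positions are from RefSeq (GRCh38.p14). The number of arrays, 2 per group, limits the precision. Python 3.11.15 with pandas 2.3.3, numpy 2.4.6 and matplotlib 3.10.9 was used for the scores and figures, and R 4.3.3 with limma 3.58.1 for the arrays.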

Additional observations from a re-analysis of the deposited data

How the results depend on the processing

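The scores have no replicates, so their sampling error is unknown. With means in place of medians the 10 S100 genes had 0.0399 for tRNA-Glu and -0.0487 for tRNA-Arg, of the same sign as the medians. Against genes without placeholder names, 3 and 2 of the 10 stayed outside the central 95%. With the central 90%, chosen after seeing the data, 4 and 2 were outside, where 10.0% of all genes are. The median half-width of a probe's 95% interval ran from 0.49 to 0.55 for tRNA-Glu and from 0.47 to 0.56 for tRNA-Arg when each array was left out in turn. With the authors' processed values the half-width was 0.41, and limma called 15 probes for tRNA-Glu and 0 for tRNA-Arg. Leaving out 1 array gave 0 to 496 called probes for tRNA-Glu and 0 to 10 for tRNA-Arg. The cause was not tested. A fit that leaves 1 array in a group assumes that it varies like the other groups. After quantile normalization the deviations of same-numbered arrays had correlations between -0.129 and 0.0465 in 15 pairings of groups. Whether same-numbered arrays shared a culture or batch cannot be told from these values, since normalization removes shifts of a whole array. With the replicate number as a block, added after seeing the data, the half-width was 0.49 and limma called 1 and 0 probes. With only probes above the array's median in a group, also added later, the half-width was 0.43 and limma called 1 and 0 probes. Alternatives planned for the tests and stability differences of S100 probes were not run, as no probe was paired with a gene.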
